A study of Gallus gallus with 4 samples.

Results

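Isolated H3K27ac peaks are single, short acetylated regions that lie far from other acetylated chromatin and carry neither H3K4me3 nor H3K27me3. They were examined in otic-epibranchial progenitors (OEPs), the chick ectoderm that gives rise to the inner ear and to epibranchial ganglia, dissected from embryos of 8 to 9 somites, for which the labels name no strain or treatment. Chromatin immunoprecipitation sequencing was done on 200 pieces of OEP tissue per sample, with 1 library each for histone H3 acetylated on lysine 27 (H3K27ac), for its trimethylation at lysine 4 (H3K4me3) and its trimethylation at lysine 27 (H3K27me3). An input library was also made and enters no comparison here. The members were selected on the deposited peak positions: H3K27ac peaks on numbered autosomes, under 2000 bp wide, sharing no base with a peak of either other mark, and with no other H3K27ac peak close by on either side. The distance limit of the rule falls between 12490 bp, the widest gap of a peak left out, and 12510 bp, the narrowest gap of a member, both measured between peak edges. This gave 5622 isolated peaks among 45426 H3K27ac peaks, or 12.4% (exact Clopper-Pearson 95% interval 12.1 to 12.7).

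H3K27ac is laid down by the acetyltransferases CBP and p300 at nucleosomes that flank active enhancers and promoters. H3K4me3 marks the start sites of active and poised genes, and H3K27me3 is written by Polycomb repressive complex 2 over silent developmental genes. An acetylated region that lacks the promoter mark is often taken as a candidate distal enhancer, and neighbouring enhancers that act on the same gene can form dense clusters. In this tissue the study looked for enhancers of the ear lineage among acetylated, accessible regions without H3K27me3. Accessibility was not analysed here. The absence of a peak means that the caller found none and does not show that the mark was missing from the chromatin.

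Width, position and overlap chose the members and are given as a description. Fold enrichment and q-value come from the same H3K27ac library and are described in the same way, without a test. Each mark has 1 library and no replicate, the peak lists hold no read counts, and the depth is therefore unknown. Intervals on shares and medians cover counting error over peaks only. The dissected tissue can hold several cell types, and a mark in a few of the cells cannot be told apart from a weak mark in all of them.

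Each condition of the rule removed part of the list. Of all H3K27ac peaks, 43416 lay on numbered autosomes, 38323 of these were under 2000 bp wide and 28634 of the latter carried no other mark. The 5622 isolated peaks were 19.6% (19.2 to 20.1) of these 28634. The remaining 23012 met every condition except isolation and are called clustered peaks below. Seen from the other side, 8629 autosomal H3K27ac peaks of any width were isolated, and 65.2% (64.1 to 66.2) of them were members. Most of the other isolated peaks carried another mark. Among those under 2000 bp, 1427 overlapped H3K4me3 alone, 712 overlapped H3K27me3 alone and 484 overlapped both, 2623 in all. Only 199 isolated peaks without another mark were excluded by their width. The members covered 3.63 Mb, which was 7.60% of the length under all H3K27ac peaks.

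Isolated peaks were short. Their median width was 492.5 bp (interval of the median 478 to 510, quartiles 307.25 and 914), against 660 bp (647 to 671) in clustered peaks and 756 bp in the whole list. At most 300 bp were covered by 22.6% (21.5 to 23.7) of isolated peaks, and by 15.8% (15.3 to 16.3) of clustered peaks. At the other end, 20.4% (19.4 to 21.5) of isolated and 29.8% (29.2 to 30.4) of clustered peaks measured 1000 bp or more. Both sets stop below 2000 bp by the rule, and no peak of the H3K27ac list was narrower than 251 bp.

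The median fold enrichment of isolated peaks was close to that of clustered peaks, but a smaller share of them reached a fold enrichment of 3 or a q-value of 0.01. The fold enrichment of a peak is the authors' linear ratio of the signal over local background. Its median was 2.61 (2.60 to 2.62) in isolated peaks and 2.60 (2.60 to 2.61) in clustered peaks, and the quartiles were 2.40 and 2.88 against 2.38 and 2.91. A fold enrichment of at least 3 was reached by 1041 isolated peaks, or 18.5% (17.5 to 19.6), against 25.2% of all H3K27ac peaks and 20.2% (19.7 to 20.7) of clustered ones. At least 4 was reached by 95 isolated peaks, 1.69% (1.37 to 2.06), against 3.07% of all H3K27ac peaks and 1.93% (1.76 to 2.12) of clustered ones, with intervals that overlap. Fewer isolated peaks had a small q-value, the caller's false discovery rate, given as a mean of its −log10 value over the peak. At 0.01 or less there were 2263 isolated peaks, 40.3% (39.0 to 41.5), against 54.0% of all H3K27ac peaks and 48.4% (47.8 to 49.1) of clustered ones. It is not stated whether the input gave the local background. If not, neighbouring H3K27ac peaks may have entered it, and 70.9% of clustered peaks but no member had one within 5 kb. The rule may thus bear on fold enrichment and q-value in these sets, which was not tested.

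The difference in q-value was also seen between peaks of like width. With clustered peaks weighted to the widths of isolated ones, 48.5% of them met a q-value of at most 0.01, close to the unweighted share. In each of 7 width bins the share was lower in isolated peaks, with separate intervals in all but the widest bin. The gap was narrowest at up to 300 bp, with 50.4% (47.6 to 53.1) against 55.1% (53.4 to 56.7). It was widest between 1001 and 1500 bp, with 37.2% (34.1 to 40.5) against 49.2% (47.8 to 50.7). Median fold enrichment showed no such gap, and the medians of the sets differed by at most 0.036 in every bin. In both sets the middle widths had the lowest fold enrichment. Isolated peaks had a median of 2.73 up to 300 bp, 2.54 from 751 to 1000 bp and 2.64 above 1500 bp, and the 230 members in the last bin were as often below a q-value of 0.01 (53.5%) as the shortest.

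**Figure D1:**
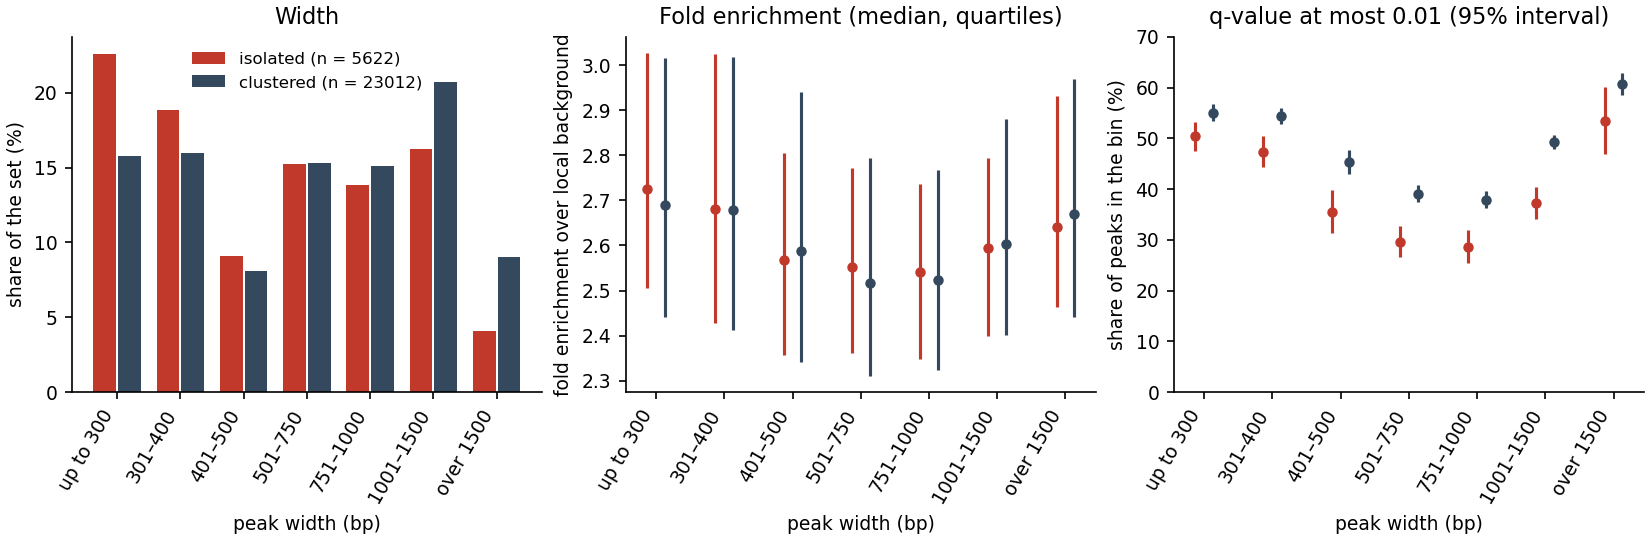
Width, fold enrichment and q-value of isolated (red, n = 5622) and clustered (dark, n = 23012) H3K27ac-only peaks. Left, share of each set in 7 width bins. Middle, median fold enrichment with quartiles as bars, on an axis that does not start at 0. Right, share with a q-value of at most 0.01 with exact 95% intervals. Short bins hold more of the isolated peaks, the medians of fold enrichment lie side by side, and the isolated share at this q-value is the lower one in all 7 bins.

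Isolated peaks that carried another mark were stronger. Their median fold enrichment was 2.74 (2.72 to 2.76), 32.3% (30.5 to 34.1) reached a fold enrichment of 3, and 57.5% (55.6 to 59.4) a q-value of 0.01. This held most for those with H3K4me3. With H3K4me3 alone the median was 2.77 (2.74 to 2.81) and the width 662 bp, with both marks 2.79 and 515.5 bp, and with H3K27me3 alone 2.65 (2.60 to 2.69) and 480.5 bp, which was close to the members in width.

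How far a member stood from the next H3K27ac peak varied widely. The median distance to the nearer neighbour was 22.2 kb (21.8 to 22.7), and that to the farther one 49.5 kb, among the 5609 members with a neighbour on each side. The other 13 were the first or last H3K27ac peak of their chromosome. The nearer neighbour lay no more than 25 kb away for 3239 members (57.6%), 25 to 50 kb for 1576 (28.0%), 50 to 100 kb for 597 (10.6%) and over 100 kb for 210 (3.74%).

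Width was lower in the more isolated bins, while fold enrichment was not. The median width was 513 bp (495 to 540) up to 25 kb, 483.5 bp at 25 to 50 kb, 441 bp at 50 to 100 kb and 416.5 bp (355 to 474) beyond 100 kb. Median fold enrichment ran from 2.60 (2.59 to 2.62) in the first bin to 2.63 (2.59 to 2.69) in the last. The share with a q-value of at most 0.01 was 41.1% (39.4 to 42.8) in the first bin and 33.8% (27.4 to 40.6) beyond 100 kb, with intervals that meet. These trends were weak at the level of single peaks. Across the 5622 members, which share 1 library, Spearman's rho of the distance was −0.04 with width and 0.03 with fold enrichment. Fold enrichment and width were themselves related at −0.14. By construction, an H3K4me3 or H3K27me3 peak that overlaps another H3K27ac peak lies farther off in the more isolated bins. The nearest H3K4me3 peak was at a median of 16.3 kb (15.8 to 17.0) in the first bin and 28.2 kb (21.0 to 33.9) in the last. For H3K27me3 the medians were 21.0 kb (20.1 to 22.0) and 20.4 kb (17.2 to 25.7), so that H3K27me3 was the nearer beyond 100 kb by its median, with intervals that meet. Among targets that do not overlap H3K27ac, a choice made after the data were seen, the first bin had medians of 19.1 kb (18.2 to 20.2) to H3K4me3 and 26.7 kb (24.9 to 28.1) to H3K27me3, while those beyond 100 kb were as before.

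**Figure D2:**
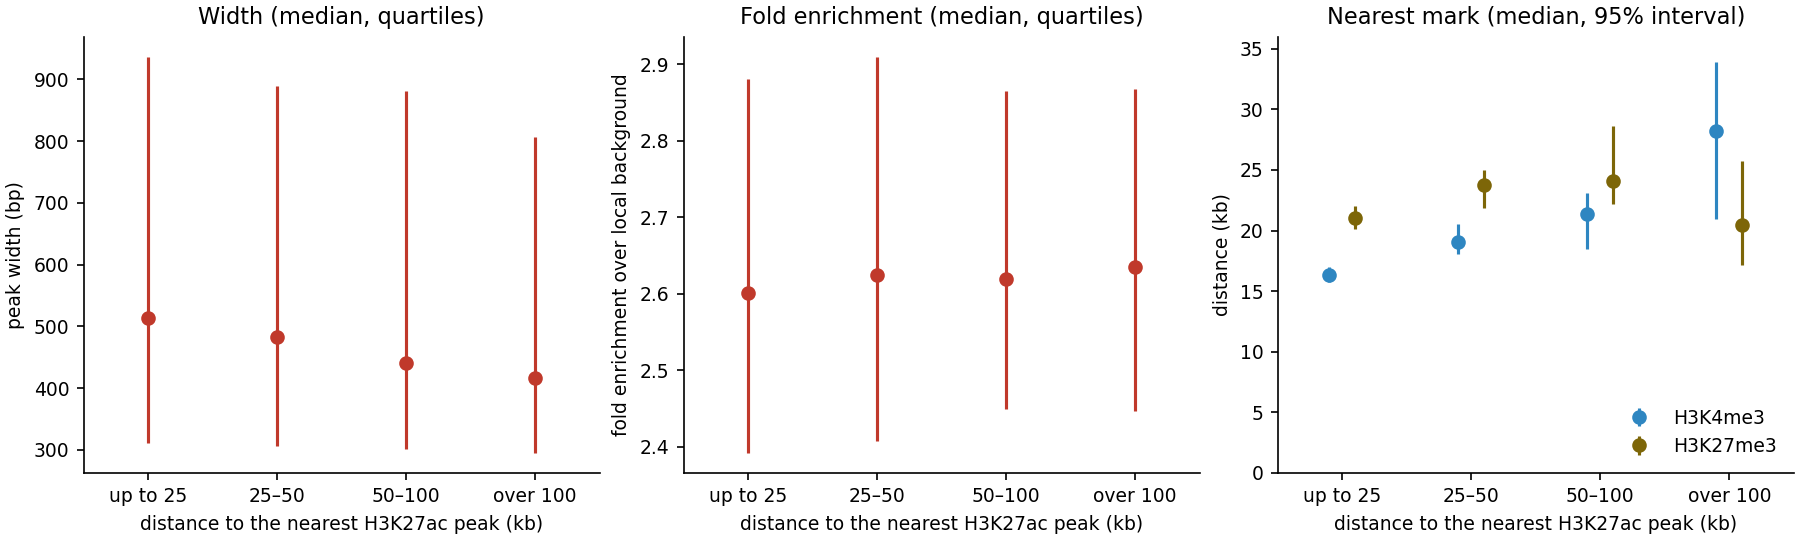
Isolated peaks by distance to the nearest other H3K27ac peak (n = 3239, 1576, 597 and 210). Left, median width with quartiles. Middle, median fold enrichment with quartiles. Both axes do not start at 0. Right, median distance to the nearest H3K4me3 (blue) and H3K27me3 (brown) peak with 95% intervals. Width is lower in the more isolated bins, fold enrichment stays near 2.6, and beyond 100 kb the median of H3K27me3 (20.4 kb) is below that of H3K4me3 (28.2 kb).

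The 5 most isolated peaks lay within long stretches without another H3K27ac peak, 4 of them on chromosome 2 (positions in GalGal6, counted from 1). The first, on chromosome 2 at 74385769 to 74386097, was 329 bp wide with a fold enrichment of 2.35 and had its neighbours 423.8 kb upstream and 508.1 kb downstream. That on chromosome 2 at 82585484 to 82585840 (357 bp, fold enrichment 2.82) had 403.5 kb and 405.0 kb of free sequence beside it. The third spanned chromosome 2 at 27337341 to 27338483 (1143 bp, 2.61) and stood 398.4 kb from its nearer neighbour. These were followed by chromosome 1 at 174789069 to 174789399 (331 bp, 2.49, 330.2 kb) and chromosome 2 at 105392055 to 105392861 (807 bp, 2.59, 321.1 kb). All 5 were of ordinary fold enrichment, and their −log10 q-values of 1.48 to 1.78 were below the median of the members, 1.82. The stretches were not empty of the other marks. From the first to the fifth they were 932.2, 808.9, 911.1, 736.3 and 762.0 kb long. In that order they held 16, 22, 10, 9 and 14 H3K4me3 and 18, 24, 8, 19 and 13 H3K27me3 peaks. These counts were not set against a rate over all autosomes. From the first stretch to the fifth, 3 of 16, 9 of 22, 0 of 10, 2 of 9 and 5 of 14 H3K4me3 peaks overlapped H3K27me3. The share was 22.6% among all autosomal H3K4me3 peaks without H3K27ac.

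**Figure D3:**
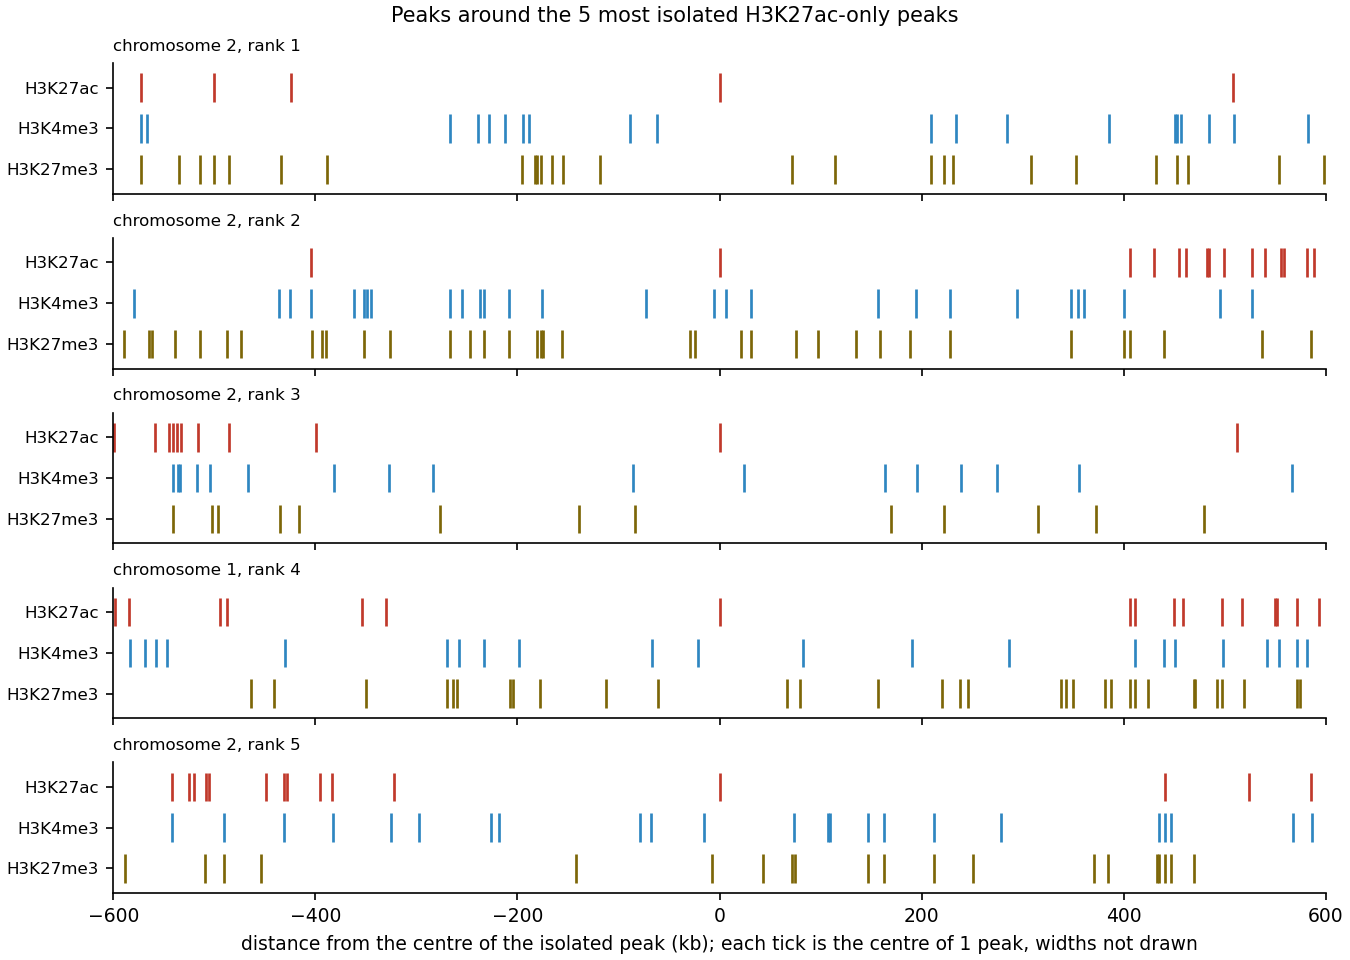
Peaks of the 3 marks within 600 kb of the 5 most isolated H3K27ac-only peaks. Each tick is the centre of 1 peak, the horizontal axis is the distance in kb from the centre of the isolated peak, and widths are not drawn. The isolated peak stands alone at 0 in the H3K27ac row, while H3K4me3 and H3K27me3 peaks are found on both sides of it in each stretch.

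The strongest isolated peaks were few, as in the other sets, and stood within 100 kb of a neighbour. Members with a fold enrichment of 5 or more numbered 13, or 0.231% (0.123 to 0.395). The share was 0.482% of all H3K27ac peaks and 0.291% (0.226 to 0.370) of clustered ones, with intervals of isolated and clustered peaks that overlap. Only 3.74% of all members stood over 100 kb from a neighbour. These 13 lay on 9 chromosomes, with fold enrichments from 5.07 to 6.55 and a nearer neighbour 12.9 to 79.3 kb away. The highest was on chromosome 13 at 15179447 to 15179937, 491 bp wide with a fold enrichment of 6.55 and a −log10 q-value of 13.8. An H3K4me3 peak lay 2107 bp from it, and 17 other H3K27ac peaks were found within 100 kb on either side. The second was on chromosome 1 at 180181330 to 180182213 (884 bp, 6.11) and the third on chromosome 9 at 15189633 to 15191150 (1518 bp, 5.99). The third was also surrounded by acetylation, with 22 other H3K27ac peaks within 100 kb, while the second had 6. Chromosome 6 at 3027022 to 3027445 (424 bp, 5.51) lay 1079 bp from H3K4me3 and had 3 other H3K27ac peaks within 100 kb. Chromosome 2 at 31765110 to 31765485 (376 bp, 5.47) was the most isolated of these 5, at 34.9 kb. Of the 13 members with a fold enrichment of 5 or more, 2 had H3K4me3 within 5 kb, 15.4% (1.92 to 45.4), against 16.0% of all members. For H3K27me3 within 5 kb there were 3, 23.1% (5.04 to 53.8), against 12.2%. Both intervals are wide and include the share of all members.

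Strong members were shorter than weak ones, but not beyond the interval for the 13 with a fold enrichment of 5 or more. Those 13 had a median width of 424 bp (336 to 1399). Members with a fold enrichment of 4 or more had a median width of 360 bp (322 to 423), and those under 2.4 had 590 bp (546 to 621). Their distance to H3K4me3 did not differ beyond its interval, with medians of 17.7 kb (12.2 to 20.2) and 16.9 kb (15.9 to 17.7), and that to H3K27me3 was 28.5 kb (22.3 to 33.1) against 22.8 kb (21.5 to 24.6), with intervals that meet. At the weak end, 108 of the 5622 members had a fold enrichment under 2, with the lowest, 1.15, on chromosome 31 at 2279345 to 2280447. Peaks under 2 were not counted in the clustered set or the whole list, so this number shows no trait of isolated peaks. The lower quartile of fold enrichment was 2.40 in members and 2.38 in clustered peaks.

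The widest members reached the limit of the rule and were of moderate fold enrichment. A pair of 1997 bp headed them, from 38441221 to 38443217 of chromosome 2 with a fold enrichment of 2.91 and from 12209484 to 12211480 of chromosome 14 with 2.85. Chromosome 3 had a member of 1978 bp (108799013 to 108800990, fold enrichment 2.47), chromosome 4 one of 1977 bp (61279188 to 61281164, 3.07) and chromosome 20 one of 1976 bp (3914502 to 3916477, 2.58). That on chromosome 2 stood 163.4 kb from its upstream neighbour, and that on chromosome 4 stood 124.6 kb from its downstream one. Just outside the limit, isolated peaks of 2003 bp on chromosome 1 and 2005 bp on chromosome 2 had fold enrichments of 3.18 and 3.11. Within 100 bp of the limit, 29 peaks below it had a median fold enrichment of 2.70 and 37 above it had 2.62. At the limit of distance, the 208 members with a neighbour up to 500 bp beyond it had a median fold enrichment of 2.60 and the 240 peaks up to 500 bp short of it 2.55. The closest cases were an adjacent pair of members on chromosome 5, 12510 bp apart, and a peak excluded at 12490 bp, also on chromosome 5. The share with a q-value up to 0.01 was 45.2% (38.3 to 52.2) for the 208 members and 35.8% (29.8 to 42.3) for the 240 peaks short of the limit. The intervals overlap, and the order is the opposite of that of isolated and clustered peaks as a whole. At the limit of width the share was 69.0% (49.2 to 84.7) below and 54.1% (36.9 to 70.5) above.

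H3K4me3 was farther from isolated than from clustered peaks, while H3K27me3 was about as far. The median distance to the nearest H3K4me3 peak was 17.6 kb (17.1 to 18.1) against 10.2 kb (10.04 to 10.41), and 899 isolated peaks, 16.0% (15.0 to 17.0), had one within 5 kb, against 27.7% (27.2 to 28.3) of clustered peaks. The median distance to H3K27me3 was 22.0 kb (21.3 to 22.7) against 23.1 kb (22.7 to 23.6), and 12.2% (11.3 to 13.1) of isolated and 12.7% (12.3 to 13.2) of clustered peaks had one within 5 kb.

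The rule bears on this comparison, because an H3K4me3 peak that itself overlaps H3K27ac cannot lie close to an isolated peak. Of the 6382 clustered peaks with H3K4me3 within 5 kb, 56.9% (55.7 to 58.1) had a nearest H3K4me3 peak that overlapped H3K27ac, and among the 899 isolated peaks the rule left 0. The distances were therefore also taken to peaks that do not overlap H3K27ac, again a choice made after the data were seen. The order of the sets was then the opposite for H3K4me3, with a median of 19.5 kb (18.8 to 20.3) from isolated and 23.8 kb (23.4 to 24.2) from clustered peaks. For H3K27me3 without H3K27ac it was 25.02 kb (24.0 to 26.2) against 37.2 kb (36.6 to 37.9). This choice lengthens mainly the distances of clustered peaks, since members had no acetylated target close by to lose. Neither order can therefore be told apart from the way the sets were chosen. Within 5 kb, 16.0% of isolated and 12.7% (12.2 to 13.1) of clustered peaks had such an H3K4me3 peak, and 12.2% and 7.28% (6.95 to 7.62) such an H3K27me3 peak.

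**Figure D4:**
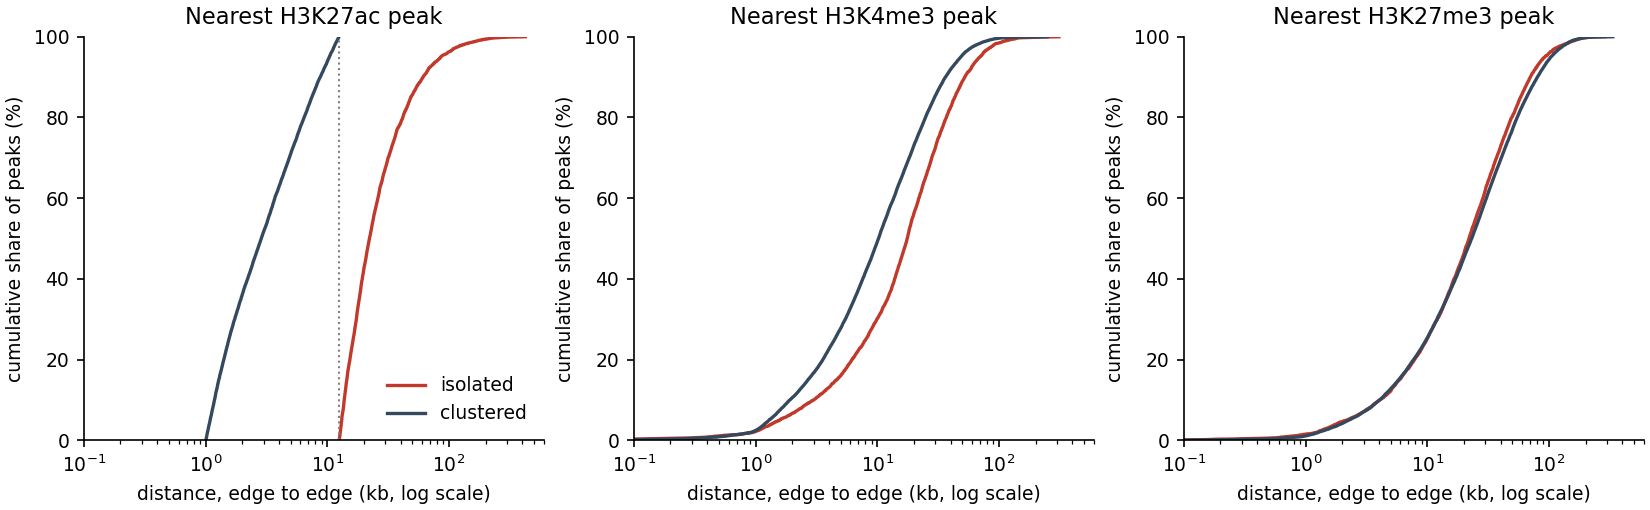
Cumulative share of isolated (red) and clustered (dark) H3K27ac-only peaks by edge-to-edge distance, on a log scale in kb, to the nearest H3K27ac (left), H3K4me3 (middle) and H3K27me3 (right) peak of the full lists. The dotted line is the distance limit of the rule. The curves for H3K4me3 are set apart, with medians of 17.6 and 10.2 kb, and those for H3K27me3 lie almost on each other, with medians of 22.0 and 23.1 kb.

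H3K4me3 was the nearer of the 2 other marks for 3179 isolated peaks, 56.5% (55.2 to 57.8), and H3K27me3 for 2430, 43.2% (41.9 to 44.5). H3K4me3 makes up 55.9% of the autosomal peaks of both lists, but that share counts peaks that overlap H3K27ac, which the rule keeps away from members. Of the 25308 autosomal H3K4me3 peaks, 16050 do not overlap H3K27ac. Among clustered peaks H3K4me3 was the nearer for 69.8% (69.2 to 70.4). The nearer mark was not taken among targets without H3K27ac, so these shares show no preference of either set. Most members were remote from both marks, with 4235 (75.3%, 74.2 to 76.5) having neither within 5 kb and 171 (3.04%) having neither within 50 kb, against 64.4% and 1.23% of clustered peaks. The rule bears on this difference too, and with targets that do not overlap H3K27ac the share with neither within 5 kb was 75.3% in isolated and 81.7% (81.2 to 82.2) in clustered peaks. Both marks lay within 5 kb of 197 members. Where H3K4me3 lay within 5 kb, it sometimes overlapped H3K27me3, the combination called bivalent. This was so for 12.1% (10.1 to 14.4) of members and 10.5% (9.80 to 11.3) of clustered peaks, with intervals that overlap. The H3K4me3 peaks counted differ, because 56.9% of those near clustered peaks overlapped H3K27ac and none of those near members did. Neither likeness nor difference of the sets can therefore be read from these shares. Bivalent peaks were 22.6% (21.9 to 23.2) of autosomal H3K4me3 peaks without H3K27ac, the kind counted for members. They were 20.4% of all autosomal H3K4me3 peaks. Isolated and clustered peaks were both chosen to overlap no H3K27me3 themselves.

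Some members all but touched another mark. The nearest H3K4me3 peaks lay 5 bp from the member on chromosome 3 at 62056027 to 62057009 (983 bp, fold enrichment 2.88), 6 bp from chromosome 8 at 2976013 to 2976354 (342 bp, 3.37) and 12 bp from chromosome 3 at 23432889 to 23433511 (623 bp, 2.08). At 17 bp followed chromosome 1 at 182052366 to 182053933 and chromosome 2 at 106558378 to 106559007. The first of these was otherwise remote from acetylation, with its neighbours 171.1 and 198.4 kb away. The nearest H3K27me3 peaks lay 45 bp from chromosome 1 at 153625979 to 153626255 (277 bp, 2.75), 67 bp from chromosome 1 at 157549723 to 157550018 (296 bp, 2.57) and 87 bp from chromosome 4 at 20162093 to 20163242 (1150 bp, 2.40). Distances of 92 and 111 bp were found for chromosome 7 at 17223809 to 17224720 and chromosome 2 at 119732351 to 119733385. The last of these had 0 H3K4me3 and 5 H3K27me3 peaks within 100 kb. In all, 122 members, 2.17% (1.81 to 2.59), had H3K4me3 within 1 kb, against 2.42% (2.23 to 2.63) of clustered peaks. For H3K27me3 within 1 kb there were 86, 1.53% (1.23 to 1.89), against 1.07% (0.940 to 1.21). The rule bears on these shares too, because it keeps targets that overlap another H3K27ac peak away from members.

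The wider surroundings of isolated peaks held fewer H3K27ac and H3K4me3 peaks than those of clustered peaks, and about as many H3K27me3 peaks. The rule bears on the H3K27ac counts, because members have no other H3K27ac peak close by, while every clustered peak has a near neighbour. It also keeps H3K4me3 peaks that overlap another H3K27ac peak away from members. These differences therefore cannot be told apart from the way the sets were chosen. Within 100 kb on either side of its centre, a member had a median of 6 other H3K27ac peaks (quartiles 3 and 11), against 16 (10 and 22) for clustered peaks. The medians were 5 (3 and 7) against 6 (4 and 8) for H3K4me3 and 3 against 3 for H3K27me3. No H3K4me3 peak was found in this window for 1.55% (1.24 to 1.91) of isolated and 0.361% (0.287 to 0.447) of clustered peaks. No H3K27me3 peak was found in this window for 4.13% (3.62 to 4.68) of isolated and 5.71% (5.41 to 6.02) of clustered peaks. The nearest H3K27ac neighbour of a member was another member in 37.7% (36.5 to 39.0), although members are 12.9% of autosomal H3K27ac peaks. A neighbour of a member has free sequence on that side by construction, which favours members. The nearest neighbour carried H3K4me3 in 21.3% (20.2 to 22.4), against 21.1% of all autosomal H3K27ac peaks, and H3K27me3 in 13.0% (12.2 to 13.9) against 9.34%. It was 2000 bp or wider in 5.14% (4.58 to 5.75) against 11.7%. Neighbours that are members carry neither mark and are under 2000 bp by the rule, which lowers all 3 shares. Members are more frequent among these neighbours than in the whole list, so neither likeness nor difference can be read from the shares.

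Isolated peaks were spread over all 32 numbered autosomes of the list at a density that varied less than that of H3K27ac as a whole. On the 5 autosomes with a span of 50 Mb or more there were 6.10 members per Mb, on the 7 of 20 to 50 Mb 6.11, and on the 20 under 20 Mb 4.63. The density of all H3K27ac peaks was 35.9, 53.2 and 71.1 per Mb over the same groups. The share of members among the H3K27ac peaks of a chromosome was therefore highest on the largest autosomes, at 17.0% (16.5 to 17.5), then 11.5% (10.9 to 12.1) and 6.51% (6.07 to 6.98). The rule bears on this order and on the flatter density of members, because a peak with free sequence on either side is rarer where H3K27ac peaks are denser. Chromosome 2 had 18.5% (17.4 to 19.6) and chromosome 26 had 2.51% (1.44 to 4.05), where H3K27ac peaks were densest at 117.3 per Mb. Small autosomes with few H3K27ac peaks departed from this order. Chromosome 31 had 14 members of 62 (22.6%, 12.9 to 35.0), chromosome 16 had 5 of 35 (14.3%, 4.81 to 30.3), chromosome 32 had 4 of 28 (14.3%, 4.03 to 32.7) and chromosome 30 had 6 of 47 (12.8%, 4.83 to 25.7), each with a wide interval.

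**Figure D5:**
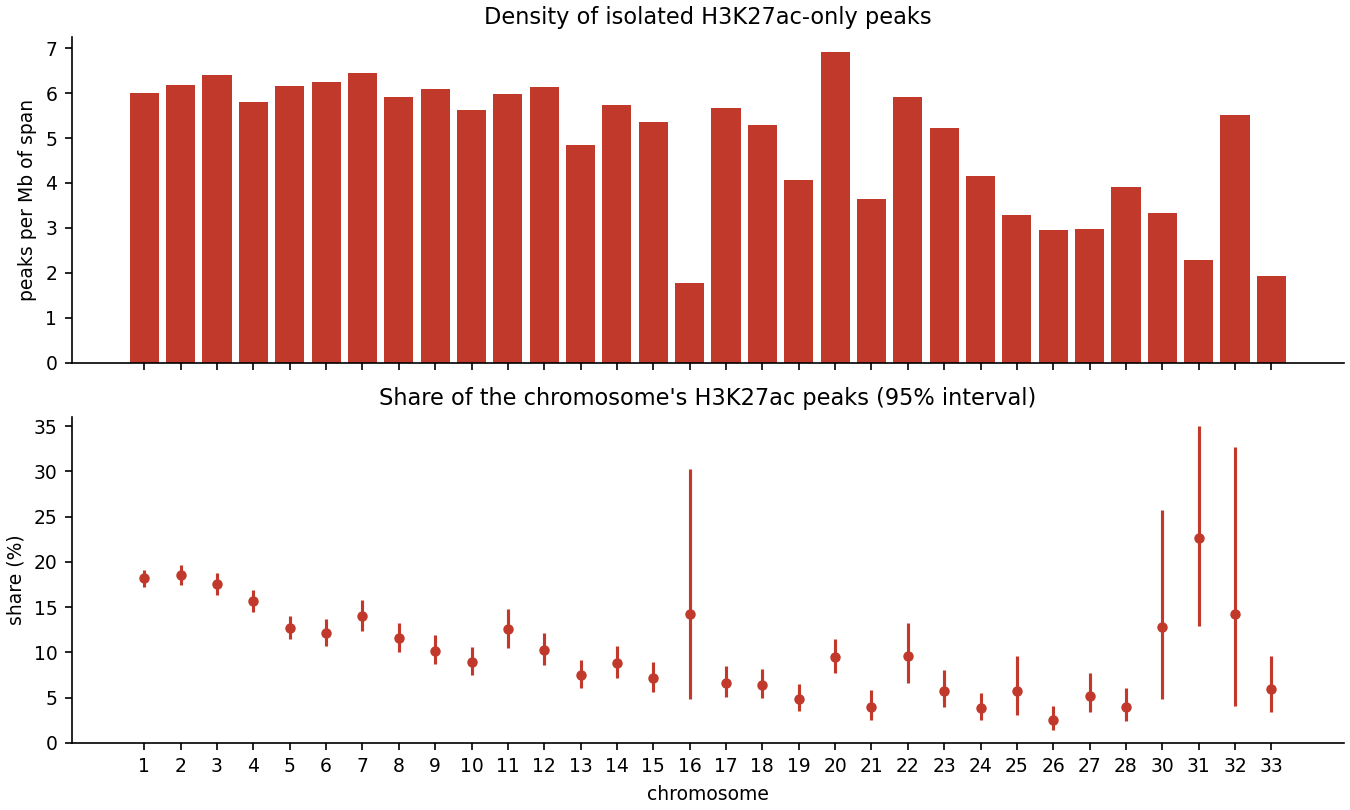
Isolated H3K27ac-only peaks on the 32 numbered autosomes that hold H3K27ac peaks. Top, members per Mb, the span of a chromosome being the end of its last peak of any mark. Bottom, share of members among the H3K27ac peaks of the chromosome with exact 95% intervals. Density lies between 5.63 and 6.45 on chromosomes 1 to 12, while the share goes from 18.5% on chromosome 2 to 2.51% on chromosome 26.

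The members themselves were much alike on large and small chromosomes. The median width was 484 bp (463 to 505), 534 bp (489 to 571) and 490.5 bp (460 to 538) from the largest to the smallest group, and the median fold enrichment 2.61, 2.62 and 2.59. The share with a q-value up to 0.01 was 39.5% (37.9 to 41.1), 40.4% (37.6 to 43.3) and 43.9% (40.3 to 47.5). Along chromosomes 1 to 5, the outermost 10% of the span at either end held 19.7% (18.4 to 21.0) of the isolated and 24.7% (23.9 to 25.5) of the clustered peaks. Of all H3K27ac peaks on these chromosomes, 23.7% (23.1 to 24.2) lay there. The isolated share is near that of an even spread along the span. The rule bears on this comparison too, because a peak with free sequence on either side is rarer where H3K27ac peaks are denser. The difference between the sets therefore cannot be told apart from the way they were chosen.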

How the data were processed

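Peak lists of 3 immunoprecipitated libraries were analysed. Per the study's methods and processing notes, the authors trimmed reads with Trim Galore, aligned them with BWA to GalGal6 in an nf-core pipeline and used MACS2 for broad peaks, keeping those with a false discovery rate below 0.1. No pooling is stated, nor whether the input served as control. The authors' deposited values for each peak are its position, the fold enrichment as a linear ratio, −log10 of the p-value and of the q-value, all as means over the peak, and a score derived from the q-value. The p-value and score were not used. A deposited start was raised by 1 to give 1-based coordinates.

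The rule was applied with Python 3.11.15, pandas 2.3.3, NumPy 2.4.6 and SciPy 1.17.1, and tested on simulated lists. Distance is the number of bases between peak edges, and overlap counts from 1 bp. Intervals are Clopper-Pearson for shares and binomial order statistics for medians, at 95%. Libraries were grouped by their titles. Named regions are the 5 highest by fold enrichment, width and isolation and the 5 nearest to each other mark, with the cases at each limit. Chromosomes 16, 26, 30, 31 and 32, single bins, the member of lowest fold enrichment and the stretches around the most isolated peaks were chosen after their values were seen. Members, lists and comparisons were chosen with earlier results of these data known. Alternatives were other distances, widths, overlaps and thresholds. A sequence and annotation of GalGal6 were not used here, so no gene is named and the motif comparison was not run.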

Additional observations from a re-analysis of the deposited data

How the results depend on the processing

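Of 48 values under alternatives, 24 stayed within the counting interval, or within 1.5 times for counts, differences and the ratio, 23 did not and 1 turned direction. A neighbour distance of 5 kb gave 12311 members with a median fold enrichment of 2.60, width of 547 bp, 41.6% at a q-value of 0.01, 14.2 kb to H3K4me3 and 60.9% nearer to H3K4me3. A distance of 25 kb gave 2383, with 460 bp, 19.9 kb, 53.0% and 23.4 kb to H3K27me3. More or fewer members follow from these distances by construction. Keeping only peaks with q-values up to 0.01 in the 3 lists gave 5383 members, as weaker neighbours and marks had left the lists. Of these, 2263 were among the 5622. By construction they are all the members with such a q-value. The median fold enrichment of the 5383 was 2.96, width 468 bp, and distances 36.3 kb to H3K4me3 and 50.3 kb to H3K27me3. At a fold enrichment of at least 3 there were 3810, with 1041 shared, again all the members at that threshold. To targets without H3K27ac, added after seeing the data, the distances were 19.5 and 25.02 kb, and 19.1 and 26.7 kb for members up to 25 kb from a neighbour. The median of isolated minus that of clustered peaks went from 7.37 to −4.37 kb for H3K4me3 and from −1.17 to −12.2 kb for H3K27me3, and the clustered share with neither mark within 5 kb from 64.4% to 81.7%. These shifts follow in part from the rule, which had already removed acetylated targets near members. For the same reason, some values counted as staying could hardly change with these targets. They are the medians beyond 100 kb, 28.2 and 20.4 kb, and the isolated share with neither mark within 5 kb, 75.3%. The density on autosomes of 50 Mb or more was 1.32 times that on those under 20 Mb, and the share of H3K27ac peaks 2.61 times. Successive pairs in which both members had a q-value of at most 0.01 numbered 346, against 2158. Fewer pairs follow by construction, because 40.3% of members had such a q-value. Otherwise the cause was not tested. No paired analysis was possible because each mark has 1 library. The effect of depth, which is unknown, on membership was not tested.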

Other observations

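Some isolated peaks followed each other along a chromosome. In 2158 cases (38.4% of members) the next H3K27ac peak was also a member, with a median gap of 37.1 kb and a largest of 827.9 kb. On at least 1 side, 3452 members (61.4%) had a member. Members are 12.9% of autosomal H3K27ac peaks. The next peak after a member has free sequence on that side by construction, which favours such pairs. The members formed 2170 runs of 1, 807 of 2, 261 of 3 and 226 of 4 or more. The longest run held 10 members over 878.6 kb of chromosome 1 at 96763945 to 97642563, with widths of 265 to 1119 bp, fold enrichments of 2.28 to 3.71 and gaps of 23.4 to 175.6 kb. The next held 9 members over 629.8 kb of chromosome 7 at 1453084 to 2082926, with fold enrichments of 2.07 to 2.74. A run of 8 on chromosome 3 at 63553315 to 63891203 was the strongest of the 5 longest, with fold enrichments of 2.61 to 4.83 over 337.9 kb. The runs were chosen after their values were seen.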
